A study of Homo sapiens with 4 samples.

Results

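The H3K14ac regions described here lie inside protein-coding genes and were listed in NIT2-knockdown cells without a counterpart in control cells. A region was taken when it stood in the knockdown peak list, was narrower than 2500 bp, overlapped no region of the control list by 1 bp or more, and had its midpoint inside a protein-coding gene span more than 1 kb from every gene start and end. This gave 10273 of the 28187 knockdown regions, or 36.4% (exact 95% interval 35.9 to 37.01, counting error only), covering 6.77 Mb. The cells were MKN45, an established gastric cancer line, carrying either a non-targeting short hairpin RNA (shNT, the control) or a hairpin against NIT2 (shNIT2), both grown in the same medium. Each condition had 1 H3K14ac library and 1 input library (chromatin without antibody), so 4 samples in all, and no value below has a replicate check or a test across samples. The labels do not say whether the knockdown cells were 1 clone or a pool, nor how far NIT2 fell. The regions were chosen by their presence and overlap in both peak lists and by their width and position, so their presence in the knockdown and absence from the control are a description and support nothing further.

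H3K14ac is the acetylation of lysine 14 on the tail of histone H3, placed by acetyltransferases such as the KAT7 and KAT6 complexes and read by bromodomain proteins. It marks active gene starts, and away from them it is found at enhancers, many of which lie in introns of the gene they act on or of a neighbour. Large genes also hold inner start sites from which shorter transcripts begin, and the rule used here removes only the outermost start. NIT2 is an omega-amidase that clears a by-product of glutamine transamination.

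Some of the regions overlapped annotated inner start sites, and 6 such promoter windows are shown as examples. Overlap does not tie the mark to the use of that start, since transcripts were not measured here. Each window holds 300 bases (250 before to 50 after the start) from RefSeq, build GRCh38.p14, and is written 5′ to 3′ on the strand of the gene. Capitals mark letters that match a GC box (GGGCGG), an AP-1 site (TGANTCA), a cAMP response element (TGACGTCA), a TATA box (TATAAA) or an E-box (CACGTG) on either strand. The windows are those of SOS1, a RAS exchange factor (chr2:39121002-39121301, minus strand), TSKU, a secreted leucine-rich protein (chr11:76783106-76783405, plus strand), ATP5MC2, a c-ring subunit of ATP synthase (chr12:53675370-53675669, minus strand), TJP1, the tight junction protein ZO-1 (chr15:29821430-29821729, minus strand), MECOM, a zinc finger transcription factor (chr3:169146490-169146789, minus strand), and HDAC4, a class IIa histone deacetylase (chr2:239274732-239275031, minus strand).
SOS1: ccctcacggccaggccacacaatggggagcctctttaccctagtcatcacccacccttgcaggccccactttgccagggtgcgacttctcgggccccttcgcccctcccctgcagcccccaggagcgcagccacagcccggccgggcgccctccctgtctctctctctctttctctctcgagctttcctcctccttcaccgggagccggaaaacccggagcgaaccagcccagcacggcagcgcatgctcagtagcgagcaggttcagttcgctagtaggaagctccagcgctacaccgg
TSKU: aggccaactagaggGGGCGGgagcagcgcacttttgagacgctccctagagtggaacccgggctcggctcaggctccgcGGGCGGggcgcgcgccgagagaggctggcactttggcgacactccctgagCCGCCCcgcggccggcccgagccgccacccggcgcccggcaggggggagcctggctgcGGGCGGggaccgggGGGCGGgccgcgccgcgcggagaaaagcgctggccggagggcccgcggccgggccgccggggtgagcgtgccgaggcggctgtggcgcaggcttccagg
ATP5MC2: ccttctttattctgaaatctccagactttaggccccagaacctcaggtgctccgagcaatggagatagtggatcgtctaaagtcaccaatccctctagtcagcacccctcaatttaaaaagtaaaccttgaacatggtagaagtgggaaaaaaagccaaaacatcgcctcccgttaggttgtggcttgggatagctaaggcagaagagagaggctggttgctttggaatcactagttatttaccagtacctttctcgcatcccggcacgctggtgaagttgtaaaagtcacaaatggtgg
TJP1: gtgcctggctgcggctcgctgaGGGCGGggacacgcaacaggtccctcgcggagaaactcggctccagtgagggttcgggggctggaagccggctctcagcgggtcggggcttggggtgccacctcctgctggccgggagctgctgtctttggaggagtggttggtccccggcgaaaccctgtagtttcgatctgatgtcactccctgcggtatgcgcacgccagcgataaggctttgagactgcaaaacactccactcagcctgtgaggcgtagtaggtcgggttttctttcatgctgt
MECOM: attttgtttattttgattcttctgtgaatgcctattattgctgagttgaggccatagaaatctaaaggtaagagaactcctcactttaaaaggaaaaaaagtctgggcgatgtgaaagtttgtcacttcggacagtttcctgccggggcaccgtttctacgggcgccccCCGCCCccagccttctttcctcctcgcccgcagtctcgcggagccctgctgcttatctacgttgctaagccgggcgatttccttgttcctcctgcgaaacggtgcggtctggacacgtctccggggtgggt
HDAC4: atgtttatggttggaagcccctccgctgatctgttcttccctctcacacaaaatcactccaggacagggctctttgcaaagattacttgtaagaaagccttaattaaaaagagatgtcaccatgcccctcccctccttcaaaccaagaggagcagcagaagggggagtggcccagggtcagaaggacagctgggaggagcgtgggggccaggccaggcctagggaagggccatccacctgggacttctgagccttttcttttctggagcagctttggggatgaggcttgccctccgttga

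The region over the SOS1 start reached a fold of 14.6 on 74 fragments, where the fold is the authors' value for summit pileup over local background, with 1 added to each. TSKU reached 15.6 on 99 fragments, ATP5MC2 10.7 on 66, TJP1 7.76 on 26, HDAC4 5.91 on 24 and MECOM 3.47 on 21. The region covered all 300 bases of each window except that of SOS1, of which it covered 232. The midpoint of the TSKU region lay 1.37 kb past the gene's outermost start. There a region at the inner start and the flank of the mark at the outermost start cannot be told apart. The windows were unlike in composition. TSKU had 42 CpG dinucleotides and 79.0% G and C, with GC boxes, while HDAC4 had 3 CpG at 54.3% and ATP5MC2 had 7 at 46.3%, both with no match to any of the motifs searched. The motif letters are a description of these windows and not evidence of binding.

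Across the gene interiors, 402 inner protein-coding starts, of 338 genes, had a promoter window touched by one of these knockdown-only regions. Their windows were richer in CpG than those of inner starts without a knockdown region. A window counted when 1 base or more was covered, so the start itself could lie outside the region. Some regions touched several windows. Of 5007 inner protein-coding starts, 8.03% had their window touched by such a region, 1.14% by a shared region inside a gene, 2.92% by another knockdown region and 87.9% by none. The median window had 26.5 CpG (quartiles 10 and 36) where a knockdown-only region touched it, 28 (19 and 37) where a shared region did, and 8 (3 and 22) where none did. A GC box stood in 62.4% of the touched windows, 37.6% of the windows without a knockdown region and 44.95% of all 35116 promoter windows of the table. An AP-1 match stood in 9.70%, 8.59% and 7.71%, and a TATA match in 7.71%, 11.9% and 11.5%, in the same order. For the cAMP response element the shares were 0.746%, 1.27% and 1.85%, and for the E-box 6.72%, 6.0% and 7.26%. A GC box match and a CpG-rich window go together, since the GC box holds a CpG itself.

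Measured by midpoint, 905 of the 10273 regions (8.81%, exact interval 8.27 to 9.37) lay within 1 kb of an inner protein-coding start, although only 0.680% of the gene interior does. For shared regions inside genes the share was 5.88% (4.57 to 7.44). Inner starts of long non-coding RNA genes were within 1 kb of 2.90% (2.58 to 3.24) of the regions, against 0.482% of the interior. Counting either kind, 1085 regions or 10.6% were near an inner start, so most regions had none within 1 kb. The regions near an inner protein-coding start had a median fold of 4.49 (quartiles 3.55 and 5.73) and a median width of 575 bp. The other regions had 3.82 (3.18 and 4.85) and 512 bp. Starts of genes that the table does not hold were not counted. The share of the interior takes no account of distance from the outermost start. In genes over 100 kb with a known strand, the regions had 55.1 per Mb from 1 to 2 kb past that start. More than 50 kb from both ends they had 6.33. Whether regions near inner starts, or the CpG-rich windows they touched, reflect the flank of the mark at the outermost start was not tested.

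A second set of sequences shows microRNAs whose hairpin was overlapped by a knockdown-only region. This was so for 14 of the 865 hairpins with a midpoint in the gene interior (1.62%, exact interval 0.888 to 2.70), while the regions cover 0.554% of that interior. The mature sequences of 4 of them follow, from RefSeq on GRCh38.p14, with the seed (bases 2 to 8) in capitals. They were chosen after their values were seen, for their host genes.
hsa-miR-7845-5p: aAGGGACAgggagggucgugg
hsa-miR-3646: aAAAUGAAaugagcccagccca
hsa-miR-6732-5p: uAGGGGGUggcaggcuggcc
hsa-miR-6081: aGGAGCAGugccggccaaggcgcc
The strongest of these regions held MIR7845 in KLF7, a Krüppel-like transcription factor (chr2:207166377-207166956, fold 16.9), and also touched an inner start of KLF7. MIR3646 lay under a region of fold 6.84 in the gut transcription factor gene HNF4A (chr20:44407823-44408901) and MIR6732 under one of 5.08 in ZC3H12A, an RNase that limits inflammation (chr1:37480033-37480930). MIR6081 lay in AOPEP (chr9:95064944-95065785, fold 5.17). The seeds of the 4 are all different. A region over a hairpin does not show that the microRNA is made.

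The regions were narrow and of modest strength. Their median width was 518 bp (quartiles 366 and 799), their median fold 3.85 (3.22 and 4.92) and their median pileup 20 fragments (15 and 27). A fold of 5 or more was reached by 2464 regions (24%) and a fold of 10 or more by 238 (2.32%). Shared regions inside genes were wider and stronger, with medians of 918 bp, 5.68-fold and 32 fragments over 1105 regions. Knockdown-only regions at gene ends had a median fold of 4.45 over 6375 regions, and those between genes 3.99 over 7896, so the regions inside genes had the lowest median fold of the knockdown-only classes. The 95% intervals of the medians, which cover counting error only, were 3.82 to 3.88 inside genes, 4.39 to 4.52 at gene ends and 3.94 to 4.02 between genes. Near the limits of the rule, the widest regions taken were 2499 bp in GLIS3 and 2498 bp in PTPRM, and the narrowest left out were 2501 bp in ITGB4 and 2503 bp in MAGI1. The nearest to a gene boundary were taken at 1001 bp in ARSG and left out at 1000 bp in BTBD1.

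The control list was longer, with 39876 regions against 28187, but its pileups were lower. The lowest background, a floor that both depth and fragment length raise, was 0.278 fragments in the control and 2.48 in the knockdown, a ratio of 8.93. Divided by this ratio, the pileup of the regions had a median of 2.24 fragments (quartiles 1.68 and 3.02), while the lowest pileup called anywhere in the control list was 3. A pileup of at least 3 after scaling was reached by 2601 of the 10273 regions (25.3%), or by 3498 (34.1%) when the ratio was also divided by that of the shortest region of each list (7.86). The remaining regions, by either ratio, lay under the lowest pileup of the control list. Of the shared regions inside genes, 699 or 63.3% reached 3, so the rest met a control region although their scaled pileup was under 3. Absence from the control list is therefore not absence of the mark, and the part of depth was not tested. The share of regions inside genes that were knockdown-only fell with strength, from 98.2% at a −log10 q under 2 to 84.8% between 10 and 20 and 41.9% (35.2 to 48.9) of the 210 at 50 or more. Divided by the ratio of 8.93, the pileup of 349 regions was at least 6 fragments, the control list's median. Since the cells were measured in bulk, fewer cells with the mark and less of the mark in each cell cannot be told apart.

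**Figure D1:**
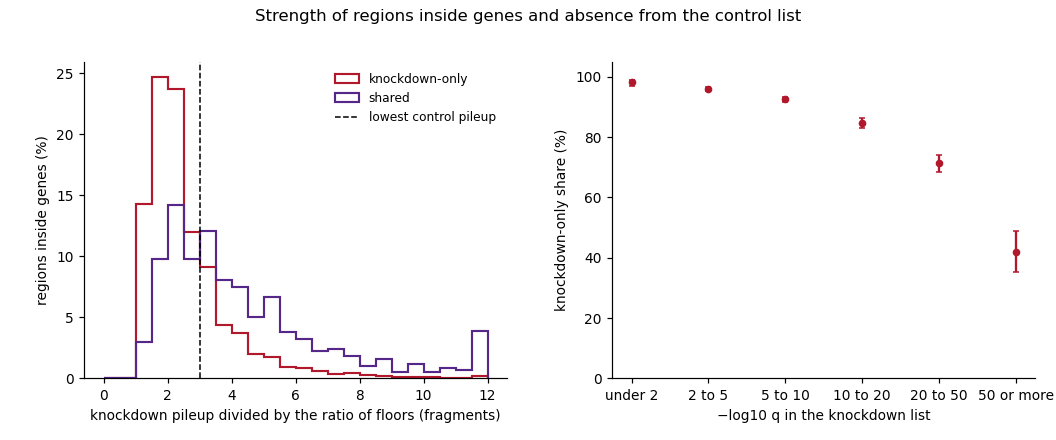
Left, percentage of knockdown regions inside genes by summit pileup divided by the ratio of background floors (8.93), for knockdown-only and shared regions, with values above 12 placed in the last bin and the lowest control pileup (3) dashed. Right, share of regions inside genes that were knockdown-only by −log10 q, with exact 95% intervals, which drops from 98.2% to 41.9%.

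Along the gene, the regions were densest just past the start. In 2761 genes over 100 kb with a known strand, the density was 55.1 regions per Mb (exact Poisson interval 46.6 to 64.8) from 1 to 2 kb past the gene start and 21.1 (18.04 to 24.4) from 2 to 5 kb. It then lay between 9.15 and 11.4 per Mb out to 50 kb from the start. On the side of the gene end the density was 4.46 (2.30 to 7.79) from 1 to 2 kb and between 5.38 and 6.95 from 2 to 50 kb. More than 50 kb from both ends it was 6.33 (6.09 to 6.57), on 2734 regions. At each distance up to 50 kb the interval at the start side lay above that at the end side. The intervals cover counting error only, and the regions of 1 gene share a source. The first interval borders the 1 kb limit of the rule, and there a region of its own and the flank of the mark at the start cannot be told apart. The median distance to the nearest gene start or end was 22.2 kb over all regions. Strands and inner starts on chromosome 8, which has 396 of the regions, were not used here. Genes on it, such as NSMCE2 and EXT1, are therefore left out of these densities, and it enters the totals behind the shares near inner starts without adding a start. The gap is wider than chromosome 8, since a strand was known for 15841 of the 20033 protein-coding genes. Genes elsewhere without a strand, such as NRP1, EPS8 and PARD3, are left out of these densities as well.

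**Figure D2:**
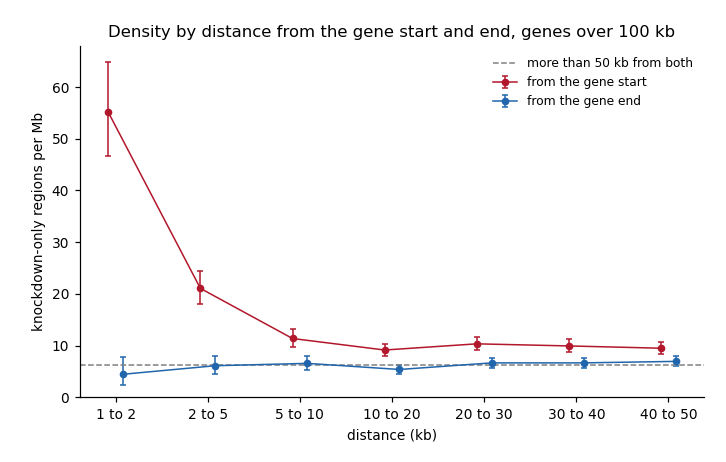
Density of knockdown-only regions (per Mb of interior) by distance in kb from the gene start or the gene end, in genes over 100 kb; points carry exact Poisson 95% intervals and the dashed line is the density more than 50 kb from both. The start side falls from 55.1 to about the level of the other bins by 10 kb and stays above the end side.

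Few genes held many of the regions. At least 1 lay in 4273 of 18776 genes with a span over 2 kb (22.8%), at least 3 in 1237 (6.59%) and at least 5 in 537 (2.86%). A region inside overlapping genes counted for each, which concerned 250 regions, and up to 9 genes held the same one. Longer genes held regions more often, from 5.75% of genes of 2 to 10 kb to 28.7% at 30 to 100 kb and 56.9% (53.3 to 60.4) above 300 kb. The density went the other way, from 1.91 per 100 kb of interior in the shortest class to 0.984 at 100 to 300 kb and 0.465 in the longest. Over all gene interiors, 1221 Mb, it was 8.41 per Mb, or 1 region in 119 kb.

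The gene with the most was AOPEP, which encodes an aminopeptidase, on chromosome 9 (94726699 to 95150224), with 33 regions or 7.87 per 100 kb, 9.35 times the rate over all interiors. Their folds ran from 2.85 to 18.6 with a median of 4.49, and their median spacing was 3.14 kb. They stood in groups. The strongest, at 18.6, was 80.03 kb from the gene start, next to one of 10.8 at 78.1 kb, and a run of 13 regions followed between 159.6 and 194.7 kb. No knockdown region touched the start of AOPEP. The control list had 10 regions in the same interior, and 5 knockdown regions there were shared. The background of the 33 was low, with a median of 1.26 times the floor, and all 33 stayed when regions above 2 times the floor were left out.

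RAD51B, a recombination repair gene, followed with 32 regions over 861 kb (folds 2.82 to 8.60, median 3.71), and MECOM with 31 over 578 kb (2.47 to 11.1, median 3.22). In MECOM the regions gathered between 273 and 397 kb from the start. There stood its strongest, at 393.8 kb (11.1-fold), and a run of 10. A further group lay between 511.8 and 529.4 kb, where the inner start shown above is covered. DST, which encodes the cytoskeletal linker dystonin, and PDE4D, a cAMP phosphodiesterase, had 24 each, and the chromatin-bound ataxin-1 gene ATXN1 had 23, with folds up to 7.18, 6.27 and 14.3. In PDE4D, which spans 1553 kb, this was only 1.84 times the overall rate. Local background was higher at several of these genes: its median was 2.33 times the floor in DST, 2.32 in ATXN1, 2.15 in MECOM and 1.997 in RAD51B. With only regions at or under 2 times the floor, MECOM kept 11, DST 3, RAD51B 16 and ATXN1 6. The part of local background in these counts was not tested.

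NSMCE2, a SUMO ligase of the SMC5/6 complex, held 22 regions. CMSS1 and FILIP1L are listed with 22 each, but these are the same regions, since the 2 genes overlap on chromosome 3. NRP1, the neuropilin co-receptor for semaphorins and VEGF, held 21 in an interior of only 155.2 kb, or 13.5 per 100 kb and 16.1 times the overall rate. Its folds ran from 2.82 to 11.8 with a median of 4.50 and a median spacing of 2.11 kb, and the control list had 2 regions there, with 2 knockdown regions shared. The signalling kinase gene PRKCA and CDKAL1, a tRNA-modifying enzyme, had 20 each. IGF1R, the insulin-like growth factor receptor, and the actin-binding ABLIM1 had 19 each.

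Among the rest of the 20 genes with the most regions, several act on actin and cell shape. EPS8, which caps and bundles actin downstream of growth factor receptors, had 18 (10.8 per 100 kb), the class I myosin MYO1E 17 (7.24 per 100 kb), and SHROOM3, which drives apical constriction of epithelial cells, 17 (4.91 per 100 kb). FOXP1, a forkhead transcription factor, had 18, and EXT1, a heparan sulfate polymerase, and NHS 17 each. With that limit on background, PRKCA kept 3, IGF1R 7 and NHS 1, whereas NRP1 kept 15 and MYO1E 12. In EPS8 the median background was 2.99 times the floor and no region stayed under the limit of 2 times, whereas SHROOM3 had 1.098 times. All 20 genes had at least 1 control region in the interior, from 1 in CMSS1, FILIP1L, MYO1E and NHS to 11 in CDKAL1. These named genes are therefore not free of control regions, and the count concerns those knockdown regions that met none.

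**Figure D3:**
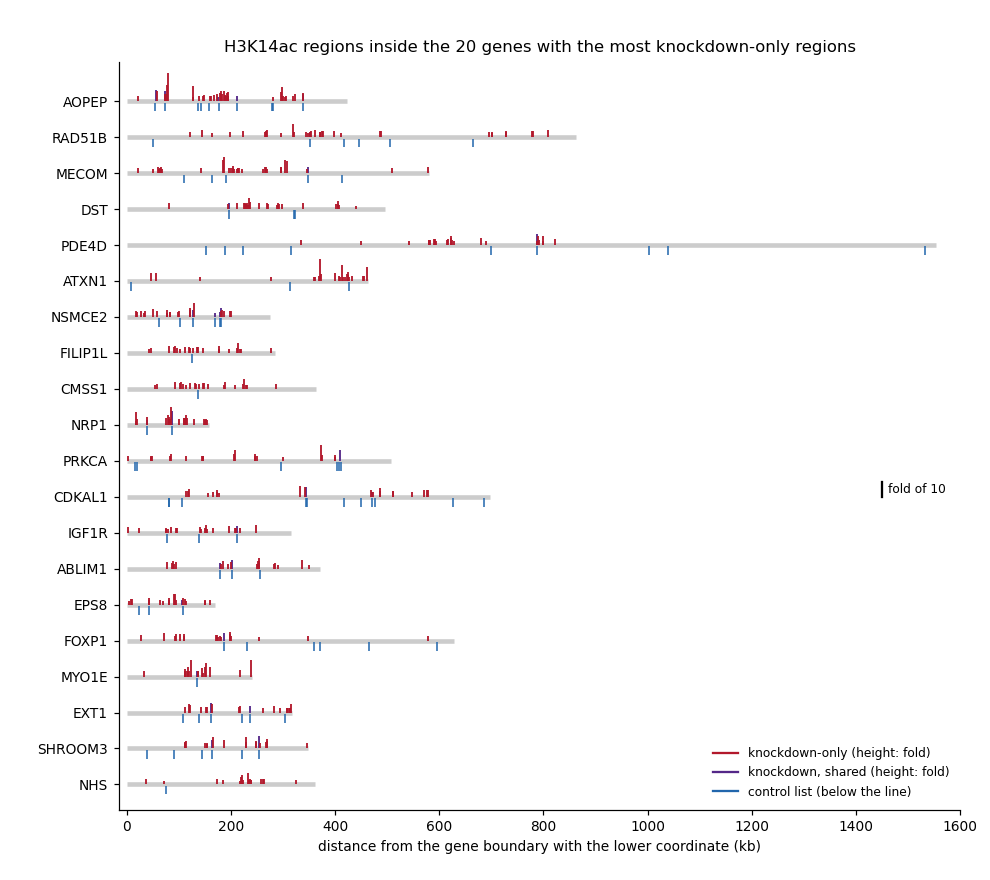
The 20 genes with the most knockdown-only regions, drawn as grey bars from the boundary with the lower coordinate (x axis, kb). Red lines are knockdown-only regions and purple lines shared knockdown regions, with height showing the fold (capped at 20; scale bar, fold of 10), and blue lines below are control regions; the red lines stand in groups, as in AOPEP and MECOM, rather than evenly.

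By density, small genes led, and this rests on few regions each. Among genes with 4 or more, TM4SF1, a tetraspanin-like surface protein, had 4 in 6.63 kb of interior (60.4 per 100 kb) and ZIC5, a zinc finger factor, 4 in 6.94 kb (57.6). TSKU had 5 (36.1 per 100 kb), the DNA repair phosphodiesterase TDP2 5 (33.5), IGFBP4, which binds insulin-like growth factors, 4 (32.6) and the pancreatic and gastrointestinal trypsin inhibitor SPINK1 4 (31.7). TMBIM1 (30.7), LOC124903573 (29.5), FBXO46 (24.3) and KLF5, a Krüppel-like factor of gut epithelium (24.3), had 5 each. No region of TSKU, TDP2, TM4SF1 or IGFBP4 had a background at or under 2 times the floor. The regions of TMBIM1 and LOC124903573 also lay in overlapping genes. Of these 10, all but FBXO46 and KLF5 had a knockdown region at a gene boundary as well, and none had a control region at one. In ZIC5, TM4SF1 and TSKU a knockdown region lay at the start. The nearest of the counted regions had midpoints 1.08, 1.36 and 1.37 kb past it. There a region of its own and the flank of the mark at the start cannot be told apart. The 4 regions of TM4SF1 had a summed width of 4.695 kb, beside its interior of 6.63 kb.

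**Figure D4:**
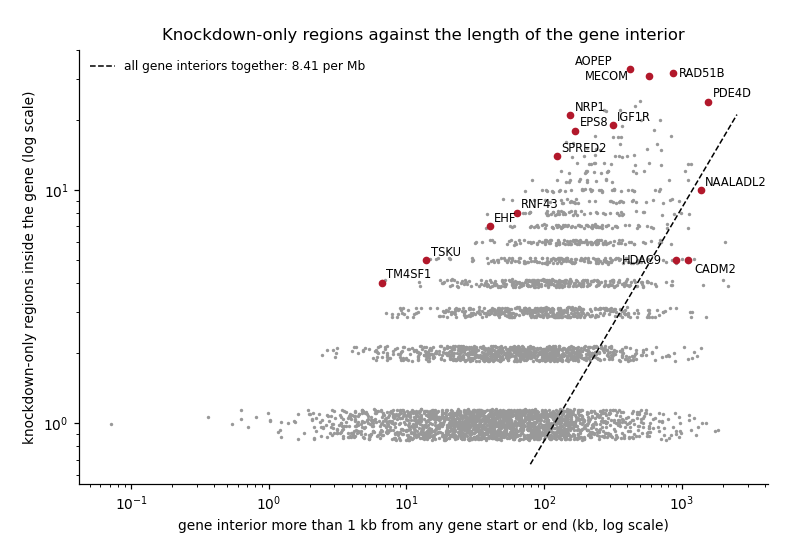
Knockdown-only regions per gene (y axis, log scale, points spread slightly for visibility) against the length of the gene interior in kb (x axis, log scale), for the 4273 genes with at least 1. The dashed line is the rate over all interiors (8.41 per Mb); AOPEP, MECOM and NRP1 lie far above it, and HDAC9 and CADM2 below it.

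Neighbouring regions were close. Another such region lay within 10 kb of 6287 of the 10273 regions (61.2%), and the median distance to the nearest was 3.50 kb. The lower quartile of that distance, taken between midpoints, was 1.24 kb. Whether such neighbours are separate sites or pieces of 1 enriched stretch was not tested, and the rule leaves out stretches listed whole at 2500 bp or more. The counts per gene, the densities and the chains therefore count listed regions and not separate sites. Chaining midpoints up to 10 kb apart gave 190 chains of 5 or more regions with 1122 regions in all (10.9%). The longest had 13, in AOPEP (36.01 kb long, median fold 4.60) and in LMO7, an actin-associated LIM protein of cell junctions (36.3 kb, median fold 5.34). A chain of 12 lay in the overlap of CMSS1 and FILIP1L (64.5 kb, median fold 3.83). Chains of 11 stood in PPARG, the adipogenic nuclear receptor also expressed in gut epithelium (28.5 kb, median fold 3.47), and ATXN1 (33.7 kb). The PPARG chain held all 11 regions of that gene, of which 6 had a background at or under 2 times the floor. MACF1, a microtubule-actin crosslinker, and ANK3, an ankyrin, had chains of 10. Some chains were far from any control region, such as 8 regions in SPRED2, a RAS pathway inhibitor, with the nearest control region 62.2 kb away, and 8 in KALRN at 150.3 kb. Others were near one, at 0.386 kb in PPARG and, nearest among the chains of 7 or more, 0.15 kb in UQCC1.

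The strongest single region stood in RGS12, a regulator of G protein signalling (chr4:3436014-3437121), at a fold of 31.6 on 109 fragments over a background at the floor. It was the only one in its gene, lay 3346 bp from a gene boundary, and had no control region within 743 kb. Divided by the ratio of background floors (8.93), its pileup was 12.2 fragments. CFDP1, a chromatin factor (chr16:75304212-75305418), had 22.3-fold on 101 fragments, with a control region 1.63 kb away. DOT1L, the H3K79 methyltransferase, had 19.6 on 81 fragments, 3641 bp from the nearest gene boundary, which was that of another gene. The lysosomal protease gene CTSB had 19.3 on 66, and LONRF2 19.1 on 70. A region of 18.97-fold lay in both MYZAP and GCOM1, which overlap. The choline transporter gene SLC44A1 (18.6), AOPEP (18.6), the phosphatase gene PPEF1 (18.4, on 193 fragments) and GLDN (18.3) completed the 10 strongest. Divided by the same ratio, the pileups of all 10 were at least 7.39 fragments. In SLC44A1, GLDN and the MYZAP region the nearest control region was under 1 kb away, at 0.554, 0.682 and 0.755 kb, so both lists hold a region at these places without overlap.

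Gene groups of epithelial cells and of actin adhesion held regions more densely than genes at large, as did several other lists described below. The lists were chosen with earlier results of these data known, so they describe and do not test. Over all genes with an interior, 22.8% held at least 1 region, at 0.845 per 100 kb counted gene by gene. Genes of integrins, focal adhesion and actin held regions in 39 of 51 cases (76.5%, exact interval 62.5 to 87.2) at 3.18 per 100 kb, the highest density of the lists of genes by function. Besides EPS8 and MYO1E, the adhesion scaffold TNS3 and the filopodial myosin MYO10 had 13 each, and ITGA6 and ITGB5, integrin subunits, 8 each. Leaving out regions above 2 times the background floor lowered that share to 58.8%. Epithelial adhesion and junction genes had 25 of 39 (64.1%, 47.2 to 78.8) at 1.93 per 100 kb, led by the polarity gene PARD3 (13), MAGI1 (10) and E-cadherin, CDH1 (6, up to 4.98-fold). The 39 genes of this list had a median length of 42.9 kb and those of the actin list 93.2 kb, against 27.3 kb over all genes, and length raises the share. Among all genes of 30 to 100 kb, a class that holds both medians, the share was 28.7% and the density 1.04 per 100 kb.

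Gut and epithelial transcription factors had 25 of 37 (67.6%, 50.2 to 81.99) at 2.73 per 100 kb. FOXP1 led with 18, followed by RUNX1 with 12 and EHF, an epithelial ETS factor, with 7 in an interior of 40.2 kb. The list also held FOXA2 with 1 region of 12.8-fold, GRHL2 with 4, HNF4A and CDX2 with 2 each. At −log10 q of at least 5 its share was 37.8%. TGF-beta and SMAD genes had 16 of 27 (59.3%, 38.8 to 77.6) at 2.69 per 100 kb, with LTBP1, which binds latent TGF-beta, at 14, the ubiquitin ligase SMURF1 at 10 and the inhibitory SMAD6 at 8. Wnt genes had 17 of 30 (56.7%) at 2.03 per 100 kb. There TCF7L2, the effector of beta-catenin, had 10, RNF43, which removes Wnt receptors, 8 within 63.03 kb, and the co-receptor LRP6 7, while LRP5 had the highest fold, 18.2. Of these genes, SMURF1, RNF43 and LRP6 kept 0 regions at or under 2 times the background floor, SMAD6 1 and LTBP1 6.

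Growth factor signalling genes were mixed. Receptor tyrosine kinases and adaptors had 20 of 34 (58.8%, 40.7 to 75.4) at 1.68 per 100 kb, from IGF1R (19) and EGFR (10) to MET (7). The regions of MET had a background of 21.9 times the floor, pileups of 91 to 169 fragments and folds of only 1.66 to 3.53, and those of EGFR a background of 3.88 times the floor. Neither kept a region at or under 2 times the floor. RAS, PI3K and MAP kinase genes had 14 of 37 (37.8%, 22.5 to 55.2) at 1.34 per 100 kb, with SPRED2 at 14, RPTOR of mTORC1 at 7 and MAPK8 at 4. SPRED2 had no control region in its interior, and 12 of its 14 regions had a background at or under 2 times the floor. Hippo pathway genes had 11 of 26 (42.3%) at 1.16 per 100 kb. They were led by the co-activator WWTR1 with 12 (4 within the limit on background), the transcription factor TEAD1 with 8 and the scaffold WWC1 with 7.

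Chromatin genes were close to genes at large in density. Writers, readers and erasers of acetylation had 13 of 43 (30.2%, 17.2 to 46.1) at 1.06 per 100 kb, of which HDAC4 alone had 14 regions and ZMYND8 and HDAC9 5 each. Genes of histone methylation and remodelling had 25 of 47 (53.2%) at 0.974 per 100 kb, led by ARID1B (9), CHD2 (8) and CHD9 (5, all at 5.20-fold or more). Nuclear receptors and coregulators had 26 of 38 (68.4%) at 0.960 per 100 kb, led by PPARG (11), the thyroid hormone receptor THRB (9) and AHR (5). With the limit on background CHD2 and AHR kept 0 and THRB 3.

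OXPHOS subunits held few regions inside. These genes, which form the respiratory chain and ATP synthase, had 7 of 76 (9.21%, 3.78 to 18.1), below the 22.8% over all genes, at 0.726 per 100 kb. Among them were COX7A2 with 2 and ATP5MC2, NDUFC1, ATP5F1A, ATP5PO and COX5A with 1 each, at folds from 3.03 to 10.7. These genes are short, with a median span of 10.2 kb, and 49 of the 76 had a knockdown region at a gene boundary, a place the rule leaves out. Of all genes, 5.75% of those of 2 to 10 kb and 13.9% of those of 10 to 30 kb held a region. The 9.21% lay between these shares. Those length classes had 1.91 and 1.24 regions per 100 kb, above the 0.726 of the OXPHOS list, which rests on 8 regions. Genes of glutamine, NIT2 and fluoropyrimidine metabolism had 16 of 44 (36.4%, 22.4 to 52.2) at 1.56 per 100 kb. The drug exporter ABCC4 had 11, up to 14.8-fold and 2 of them within the limit on background, ABCC5 had 5, the cystine transporter SLC7A11 and DPYD, which degrades fluorouracil, 4 each, and the glutamine transporter SLC1A5 3. NIT2 itself had 0.

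**Figure D5:**
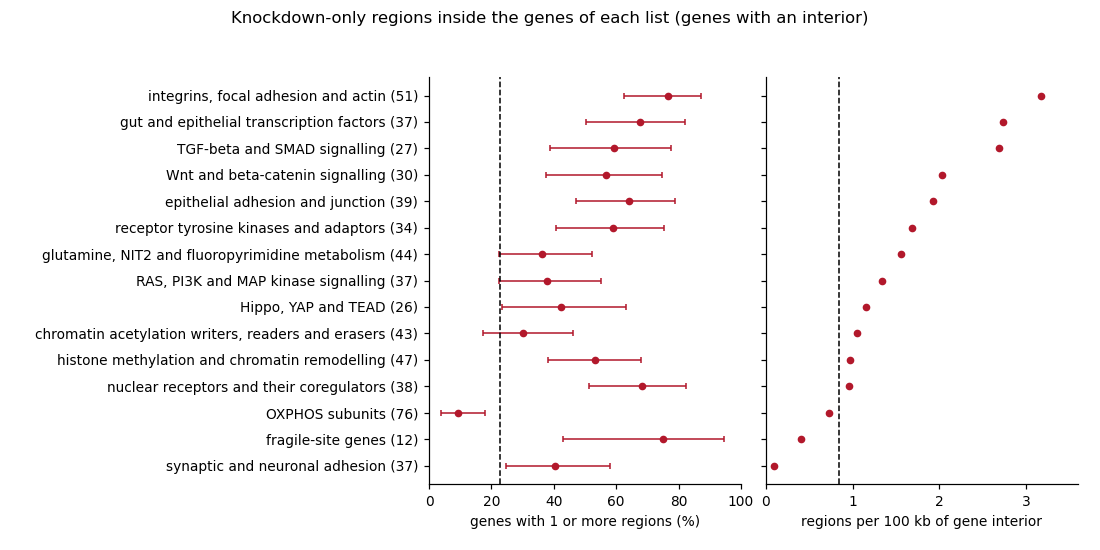
For each gene list plotted (genes with an interior in brackets), left, the percentage with at least 1 knockdown-only region with exact 95% intervals and, right, the regions per 100 kb of interior; dashed lines are all genes (22.8% and 0.845). Of the lists plotted, which leave out the marker lists, integrin, focal adhesion and actin genes lie highest in density (3.18), OXPHOS subunits lie at 9.21% and synaptic genes at 0.0878 per 100 kb.

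Very long genes of another lineage had few regions for their size. Synaptic and neuronal adhesion genes held regions in 15 of 37 cases (40.5%) but at 0.0878 per 100 kb, with a median span of 1118 kb, and none of the 37 had a knockdown region at a gene boundary. LSAMP (10), TENM4 (7) and CADM2 (5) led. Fragile-site genes, which break under replication stress, had 9 of 12 (75%) at 0.403 per 100 kb, with PDE4D (24), NAALADL2 (10) and GMDS (9). All genes above 300 kb had 56.9% at 0.465 per 100 kb. The density of the fragile-site genes was near this, and that of the synaptic genes far below it. As a check of the cell type, gut epithelium markers had 6 of 17 with a region inside (35.3%, 3.69 per 100 kb). A knockdown region at a gene boundary was found in 16 of 17. Mesenchyme markers had 4 of 9 (44.4%, 1.17 per 100 kb) and 3 of 9 in the same order. Immune markers had 2 of 5 (40%, 2.46) and 2 of 5, and neuron markers 4 of 6 (66.7%, 0.504) and 1 of 6. The gut markers were thus lowest in the share with a region inside, and highest in density and in the share with a boundary region. The lists were not matched for length. Their median spans were 11.3 kb for gut, 42.0 for mesenchyme, 11.4 for immune and 199 for neuron markers. The densities rest on 19, 7, 5 and 8 regions in that order. Over all genes the share rose and the density fell with length, so the regions inside do not serve to tell the cell type.

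Genes with regions inside were more often marked at their start, read from the same library. Of genes with a known strand, a knockdown region lay within 1 kb of the start in 33.3% (32.5 to 34.2) of the 11400 without a region inside, 52.99% (51.01 to 54.96) of the 2508 with 1 or 2, and 55.2% (50.5 to 59.8) of the 455 with 5 or more. Among genes of 100 to 300 kb, where lengths were closer, the shares were 26.8%, 42.6%, 51.2% and 59.4% (53.1 to 65.6) for 0, 1 to 2, 3 to 4 and 5 or more regions. The control list marked the start of 3.62%, 4.73%, 4.74% and 13.3% of the same genes. Even so, 1882 of the 4273 genes with a region inside (44.04%) had a knockdown region at neither boundary, AOPEP, RAD51B and MECOM among them. The control list did have a region at the start of MECOM. A knockdown-only region of MECOM had its midpoint 1.55 kb past that start. Genes at large lacked a knockdown region at a boundary more often. Over all 18776 genes with a span over 2 kb, 7207 (38.4%) had a knockdown region at a boundary. In 2124 of the 4273 (49.7%) the control list also had at least 1 region in the interior, against 18.8% of the genes without. That contrast was not matched for length. Among genes with a known strand, the median span was 21.5 kb with no region inside and 53.6 kb with 1 or 2. The median gap to the nearest control region was 27.01 kb, and 831 regions (8.09%) were within 1 kb of one.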

How the data were processed

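H3K14ac ChIP-seq libraries of MKN45 cells with shNT or shNIT2 were represented by 2 peak lists deposited by the authors, 1 per library. Per the submitters' processing notes, Bowtie2 2.2.6 and MACS2 2.1.1 were used with hg38. The same notes list cutadapt 1.9.1 and Trimmomatic 0.35, besides ChIPseeker and FastQC. Per peak, the deposited files hold a score (10 times the −log10 q, truncated), a fold (ratio of pileup to background, pseudocount 1), −log10 p, −log10 q and the summit offset, all the authors' values. Whether the inputs served as control was not given in the sources used here. Total reads are unknown.

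The members and gene lists were chosen with earlier results of these data known. Genes came from a RefSeq table of GRCh38.p14 (20033 protein-coding genes), which has no exons, so exons and introns were not separated. Strand and inner starts came from RefSeq promoter windows (15841 genes with a strand). All 10273 regions are accounted for. Gene interiors were the bases in a gene more than 1 kb from any gene start or end. Pileup and background were solved from the fold and −log10 p (Poisson upper tail, within 0.1%). The solution and the rule were tested on simulated data. Named genes were the 20 with the most regions, the 10 densest with at least 4, those of the 10 strongest regions, and the 3 with the most in each list. Inner starts, microRNAs and any further gene were picked after their values were seen. Intervals are exact (95%), covering counting error only. Python 3.11.15, numpy 2.4.6, scipy 1.17.1 and pandas 2.3.3 were used. Some listed items are not reported here.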

Additional observations from a re-analysis of the deposited data

How the results depend on the processing

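With 11 alternatives, 30 of the main counts and medians stayed (a count within 1.5 times, a share or median within its interval) and 29 moved. Keeping only −log10 q from 5 up left 5202 regions (18.5% of the list), with at least 1 in 2786 genes, 3 in 586 and 5 in 183, a median width of 718 bp and a median fold of 4.90. At 10 there were 2264 (8.03%), in 1557, 180 and 22 genes. At a fold of at least 5 there were 2464 (8.74%), in 1710, 178 and 22 genes, with a median width of 872 bp. With the background at most 2 times the floor there were 6683 (23.7%), with 3 or more in 753 genes and 5 or more in 259, a median width of 483 bp, a median fold of 4.02, and 965 that reached the lowest control pileup after scaling. The share of the list was 39.3% with a 50% reciprocal overlap, 33.5% at least 1 kb from control regions, 28.4% more than 5 kb from gene boundaries and 34.7% for regions wholly inside. Stricter thresholds keep fewer regions by construction.

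Of the 20 genes with the most regions, 18 or 19 remained with the other overlap, control distance, gene boundary, width and single-gene settings, 11 at −log10 q of at least 5, 10 with the background limit, 4 at a fold of 5 and 3 at −log10 q of 10. AOPEP had the most in every setting except at 1 kb from control regions, where MECOM had 30. Of the list shares, 12 moved out of their interval and 88 stayed. Of the counts in the 83 named genes, 541 stayed and 289 moved over all settings. They moved in 50 genes with the background limit, 63 at −log10 q of at least 5, 78 at 10 and 75 at a fold of 5. No paired analysis was possible because each condition had 1 H3K14ac library and the labels give no replicate numbers.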

Other observations

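The density of the regions differed between chromosomes. It was highest on chromosome 17, with 527 regions or 12.6 per Mb of gene interior (exact Poisson interval 11.6 to 13.8), and, among the chromosomes with any region, lowest on X, with 251 or 5.11 (4.50 to 5.78), and chromosome 4, with 386 or 5.64 (5.09 to 6.23). The median background of the regions ranged from 2.72 fragments on chromosome 22 to 6.38 on chromosome 7, where MET lies. Chromosome 22, with the lowest background, had 9.35 regions per Mb and chromosome 7 had 8.76.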
